A study of Capra hircus with 6 samples.

Results

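Complement is a set of plasma and cell-surface proteins that mark and lyse targets through a cascade of proteases. The classical arm starts from the C1 complex, in which the proteases C1r and C1s cleave C4 and C2. The alternative arm uses factor B, and both arms meet at C3, whose cleavage opsonises the target and feeds the terminal lytic pore. Regulators hold the cascade in check: C1 inhibitor (SERPING1) blocks C1r and C1s, CD55 speeds the decay of the C3 convertases, and CD46 serves as cofactor for factor I (CFI), which cleaves C3b. Most plasma complement comes from the liver, and stromal cells and adipose tissue also make several components.

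The genes described here are 9 complement components and regulators (C3, CFB, C1R, C1S, C2, CFI, SERPING1, CD55 and CD46) in mesenchymal stem cells of goat (Capra hircus) fat, stromal cells that can be grown and induced towards adipocytes. They were selected on earlier results of the same comparison, that is on their measured FPKM in libraries labelled YAP and in Control libraries. Their differences are therefore given as a description with no p-value. Of the 9 genes, 8 had a row under their own identifier among 16285 rows in all. CD46 had none, and is represented by the identifier LOC102169209, to which the deposited table gives the symbol CD46 and the name membrane cofactor protein. That row was found after its values were seen, and is called the CD46 row.

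RNA was sequenced from 6 libraries, 3 labelled YAP (genotype overexpressing YAP) and 3 labelled Control (genotype WT), and the labels of all 6 record adipogenic differentiation. The series' design text speaks of lines that overexpress TAZ, whereas the sample labels say YAP. The Control values stand again, equal in all 16285 rows, in the table of the libraries labelled YAP under headings that read pcDNA. The labels do not say whether Control cells carried a vector, so WT is given here as their label only. The labels do not say how YAP was delivered, whether a line was 1 clone, or whether replicates were separate cultures or animals. The p-values therefore measure only the spread between these libraries, which may be technical. The values are FPKM, fragment counts scaled by gene model length and by library total, so levels can be set side by side between genes.

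The whole reads behind the FPKM gave totals of 32593380 to 37131015 counted fragments per library. YAP1 stood at 28.4, 25.6 and 28.2 FPKM in the libraries labelled YAP, against 25.8, 27.0 and 28.9 FPKM in Control libraries. The ranges overlapped, at a mean of 27.4 ± 1.57 FPKM in the libraries labelled YAP and 27.2 ± 1.54 FPKM in Control libraries (SD, n = 3 each). The log2 difference was 0.01, with a limma adjusted p of 0.95 and a 95% confidence interval of -0.17 to 0.19, and the exact two-sided permutation p was 1, where 0.1 is the smallest possible. Leaving out single libraries turned its sign, and every direction below therefore refers to the label alone. Of 10 stromal markers, all 10 reached the filter used for testing, 1 FPKM in at least 3 libraries; their sum ranged from 19620 to 20790 FPKM in the libraries labelled YAP and from 12210 to 13530 FPKM in Control libraries. Of these 10, 7 rose and 2 fell by limma, and COL1A1, COL1A2 and COL3A1, chains of fibrillar collagens, hold most of the sum. The 2 that fell were the surface markers ENG, which averaged 80.8 FPKM in the libraries labelled YAP and 150 FPKM in Control libraries, and NT5E, which averaged 127 FPKM in the libraries labelled YAP and 170.3 FPKM in Control libraries. Of 6 adipocyte markers with a row, CIDEC alone reached that filter, although the labels record adipogenic differentiation. The summed adipocyte list ranged from 9.14 to 11.03 FPKM in the libraries labelled YAP and from 17.2 to 19.6 FPKM in Control libraries. CIDEC held nearly all of this sum, averaging 9.56 FPKM in the libraries labelled YAP and 18.3 FPKM in Control libraries. No other adipocyte row reached 1 FPKM in any library. PLIN1, at 12 to 27 reads per library, lay in the other direction (0.199 FPKM on average, against 0.13 FPKM in Control libraries).

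C3, the central component that both arms cleave, had the highest level of these genes in the libraries labelled YAP. Its values were 133, 117 and 139 FPKM in the libraries labelled YAP, against 10.8, 4.85 and 9.47 FPKM in Control libraries. The groups lay far apart, and Control replicate 2 was the lowest library. The means were 130 ± 11.8 and 8.36 ± 3.11 FPKM (SD, n = 3 each), a 15.5-fold ratio and a log2 difference of 3.86 (SE 0.20). All log2 differences are on the log2(FPKM + 1) scale, libraries labelled YAP minus Control, a scale that understates the change of low genes. Without Control replicate 2 the log2 difference of C3 was 3.56. The values rested on 19501 to 26558 reads in the libraries labelled YAP and on 843 to 1930 reads in Control libraries.

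CFB, the protease that binds C3b to form the alternative C3 convertase, was nearly silent in Control libraries. It stood at 15.2, 13.4 and 13.2 FPKM in the libraries labelled YAP, against 0.186, 0.12 and 0.223 FPKM in Control libraries. In reads these were 1383, 1076 and 1204 in the libraries labelled YAP and 16, 10 and 19 in Control libraries, so the Control level is known with wide counting error. The ratio of means was 79.0-fold, the largest ratio among the members, and the log2 difference was 3.67 (SE 0.09). By log2 difference C3 ranked 9 and CFB ranked 11 from the top among 10761 tested genes.

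The classical proteases C1R and C1S, which work together in the C1 complex, were already well expressed in Control libraries. C1R stood at 59.7, 64.5 and 56.7 FPKM in the libraries labelled YAP, against 17.2, 17.8 and 18.8 FPKM in Control libraries. Its ratio of means was 3.36-fold, with a log2 difference of 1.69 (SE 0.08). C1S stood at 71.1, 62.6 and 69.6 FPKM in the libraries labelled YAP, against 28.5, 27.6 and 33.2 FPKM in Control libraries. Its ratio was 2.28-fold, with a log2 difference of 1.16 (SE 0.09). In both genes every library labelled YAP lay above every Control library. Among the libraries labelled YAP, C1R was highest and C1S lowest in replicate 2, and among Control libraries both were highest in replicate 3.

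C2, which carries the protease of the classical C3 convertase and is a homologue of factor B, was far lower than C1R and C1S in every library, and in Control libraries it stood above CFB. Its values were 2.51, 2.5 and 2.24 FPKM in the libraries labelled YAP, against 0.309, 0.277 and 0.438 FPKM in Control libraries. The groups did not overlap, and the ratio of means was 7.08-fold with a log2 difference of 1.35 (SE 0.09). C2 and CFB are next to each other in gene order (RefSeq, assembly ARS1.2). Both passed the filter through the libraries labelled YAP alone, so a row of this kind had to differ in order to be tested.

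Among the regulators, SERPING1, the inhibitor of C1r and C1s, showed the smallest difference of the quantified members on the log2(FPKM + 1) scale. It stood at 2.74, 3.26 and 2.48 FPKM in the libraries labelled YAP, against 1.81, 1.92 and 1.67 FPKM in Control libraries, from 121 to 223 reads per library. The groups did not overlap, with a ratio of 1.57-fold and a log2 difference of 0.45 (SE 0.10). The CD46 row lay in the other direction. It had 55.3, 52.3 and 63.7 FPKM in the libraries labelled YAP, against 89.2, 74.5 and 95.6 FPKM in Control libraries, a ratio of 0.661 and a log2 difference of -0.59 (SE 0.11). With a pseudocount of 0.1 SERPING1 stood at 0.62 and the CD46 row at -0.59, so which of them differed least depends on the scale. The CD46 row was the most abundant of these genes in Control libraries, and again every library of one group lay beyond those of the other.

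CFI and CD55 were not detectable above the floor of 3 reads in any library. CFI had 0 reads in each library labelled YAP, against 0, 0 and 1 read in Control libraries, where 3 reads correspond to 0.037 to 0.042 FPKM. CD55 had 1, 2 and 1 reads in the libraries labelled YAP, against 0, 2 and 1 reads in Control libraries. No fold is given for either gene, and for genes with so few reads the read number is the smallest whole number that fits. The floor covers counting error only.

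**Figure D1:**
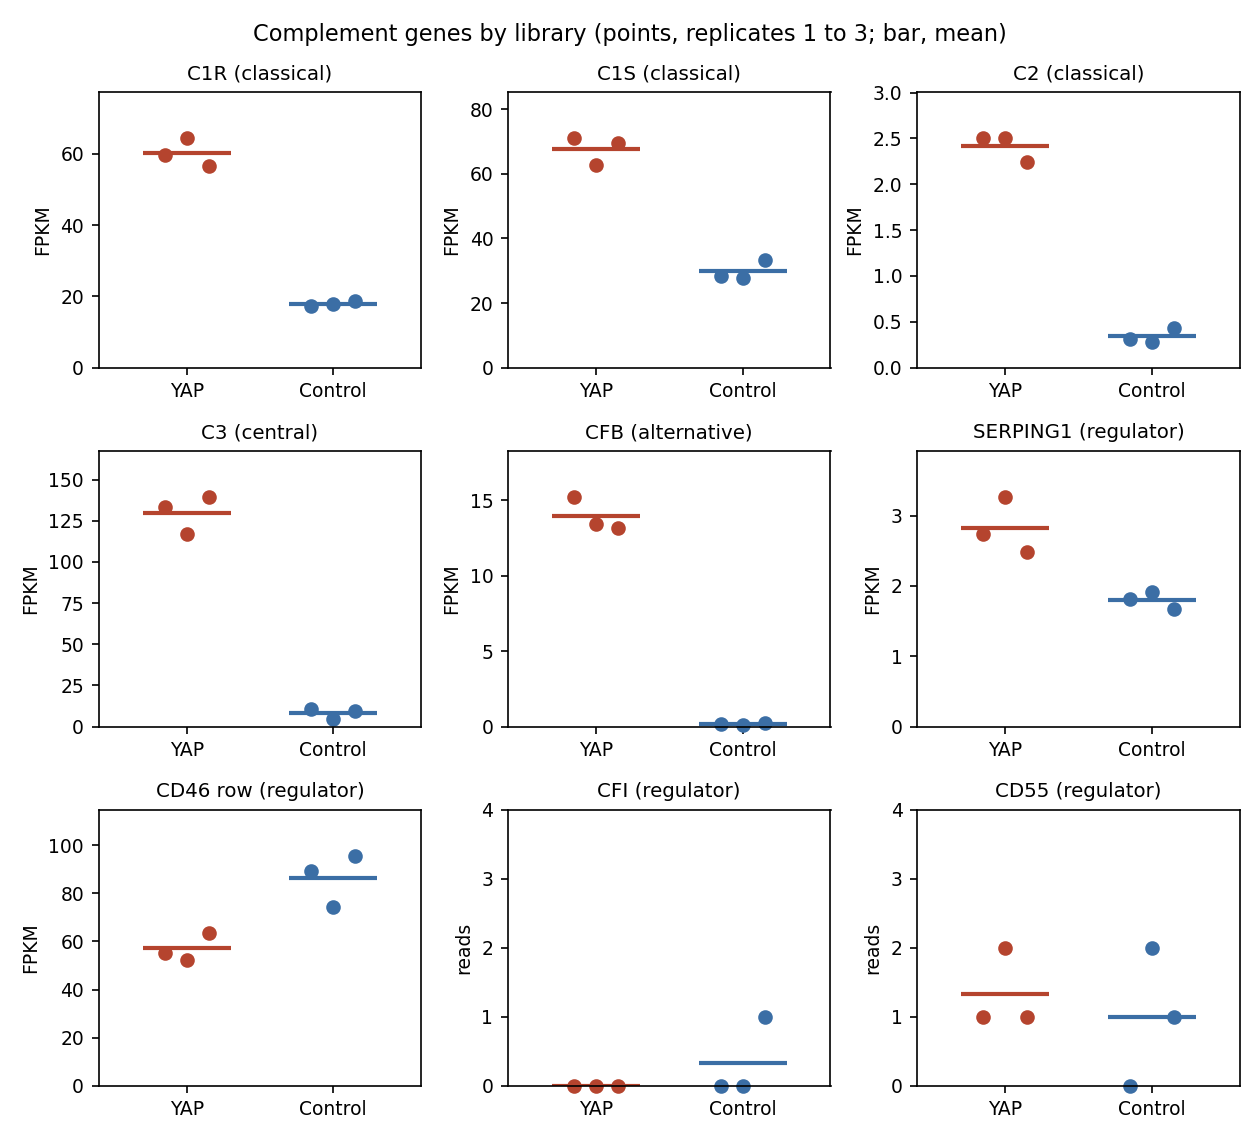
FPKM of each member in the 3 libraries labelled YAP (left in each panel) and the 3 Control libraries (right), with a bar at each mean and axes that start at 0; CFI and CD55 are drawn as reads because no library had more than 2. C1R, C1S, C2, C3, CFB and SERPING1 sit higher in the libraries labelled YAP without overlap, and the CD46 row sits lower (57.1 FPKM on average, against 86.4 FPKM in Control libraries).

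Set side by side, the arms differed in size. The alternative and central genes C3 and CFB had a median log2 difference of 3.76, and the classical genes C1R, C1S and C2 one of 1.35. Of the regulators, SERPING1 alone was tested under its own identifier, at 0.45, and the CD46 row stood at -0.59. The median over all 10761 tested genes was -0.10. These medians describe genes selected for such differences, so no test of the arms against each other was made. With a pseudocount of 0.1, which lets low genes show more of their change, CFB stood at 5.68, C2 at 2.53 and the classical median at 1.74.

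In the fit over all genes, 6 of the 8 rows passed the filter, and all 6 were past the threshold and higher in the libraries labelled YAP, where 35.9% of all tested genes passed the threshold, 12.9% higher and 23.0% lower. The same 6 rows had no overlap between groups, as had 48.3% of all tested genes. The selection used this comparison, so nothing is read from either count. The number of genes past the threshold was 3868 (1392 higher and 2476 lower), 3845 with limma-voom on the recovered reads, 2411 without YAP replicate 1, and 3209 with library scaling by median of ratios (1702 higher and 1507 lower). That scaling moved the median of all tested genes to -0.02, and under it each of the 6 rows stayed higher and the CD46 row lower.

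**Figure D2:**
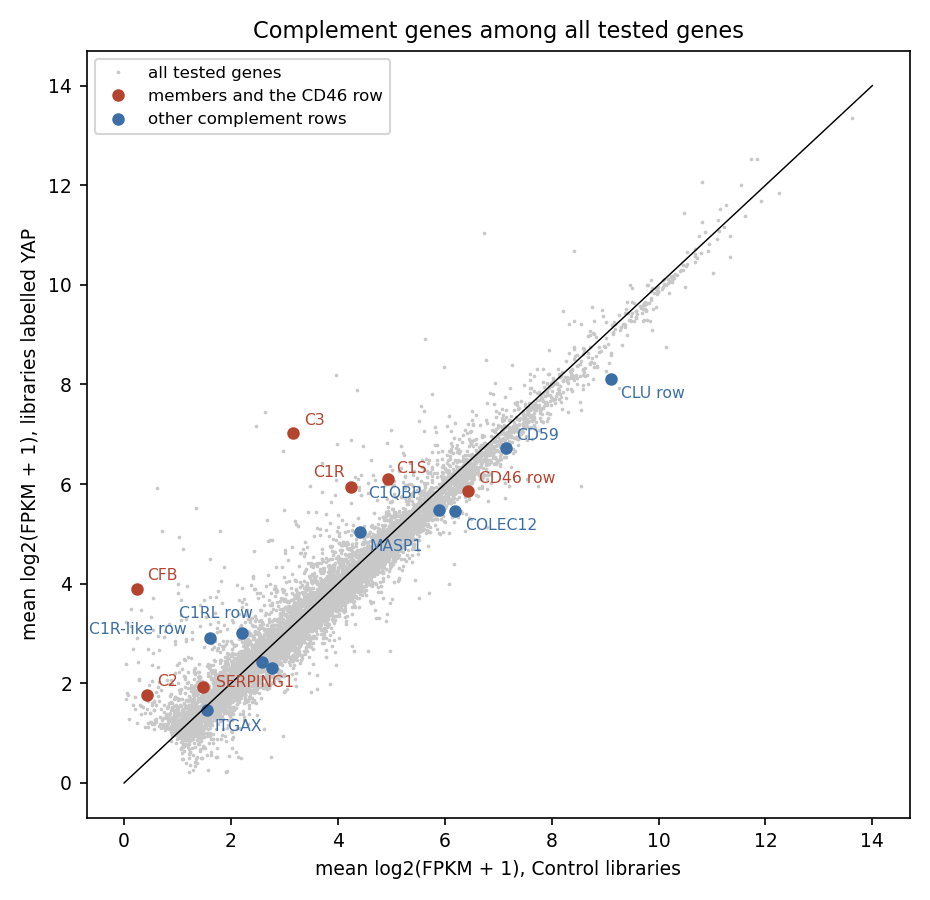
Mean log2(FPKM + 1) in libraries labelled YAP (vertical axis) against Control libraries (horizontal axis) for the 10761 tested genes (grey), the members and the CD46 row (red) and the other complement rows (blue), with a line at equal levels. C3 and CFB stand far above the line, with log2 differences of 3.86 and 3.67, and the CLU row, CD59 and the CD46 row lie below it.

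The summed level of these genes differed as well. The 8 rows summed to 284, 263 and 284 FPKM in the libraries labelled YAP, against 58.7, 52.6 and 63.8 FPKM in Control libraries. C3 made up 46.8%, 44.4% and 49.2% of their summed FPKM in the libraries labelled YAP, against 18.3%, 9.23% and 14.8% in Control libraries. In Control libraries C1S was the most abundant of the 8, and in the libraries labelled YAP C3 was. By level, C3 stood above 95.2% of tested genes in the libraries labelled YAP and above 45.1% in Control libraries. In bulk RNA, more cells that make a transcript and more transcript per cell cannot be told apart.

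Ratios within a library do not depend on how libraries are scaled. C3 over the CD46 row was 2.41, 2.23 and 2.19 in the libraries labelled YAP, against 0.121, 0.0651 and 0.0991 in Control libraries. The ratio of C3 to CFB was 8.75, 8.69 and 10.6 in the libraries labelled YAP, against 57.8, 40.4 and 42.4 in Control libraries, since CFB differed by a larger factor than C3. C3 over CD59 was 1.24, 1.19 and 1.28 in the libraries labelled YAP, against 0.0704, 0.0395 and 0.0639 in Control libraries. C1R over C1S averaged 0.894 ± 0.117 in the libraries labelled YAP and 0.604 ± 0.0405 in Control libraries (SD, n = 3 each). C1R over its inhibitor SERPING1 was 21.8, 19.8 and 22.8 in the libraries labelled YAP, against 9.47, 9.29 and 11.2 in Control libraries. In each of these ratios the groups did not overlap. For C1S over SERPING1 they did overlap, at 26.0, 19.2 and 28.1 in the libraries labelled YAP, against 15.7, 14.4 and 19.9 in Control libraries.

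**Figure D3:**
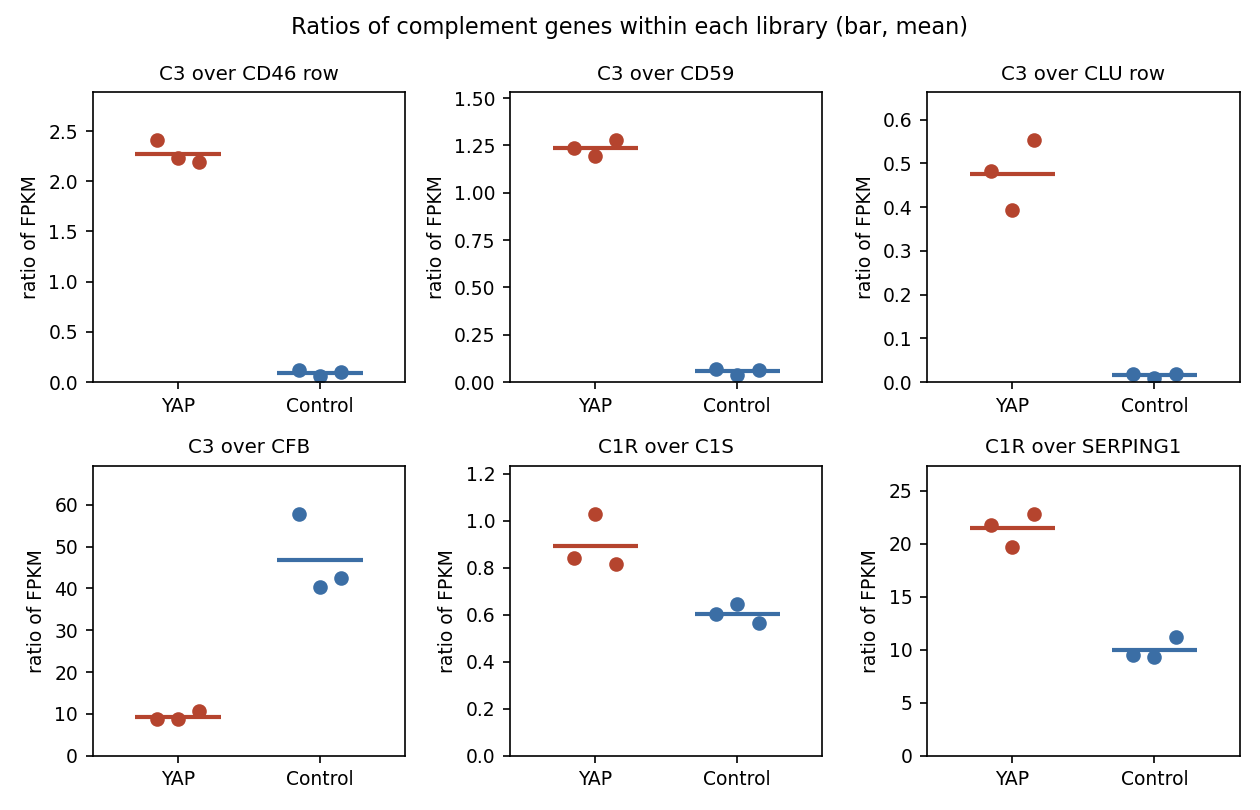
Ratio of FPKM between pairs of complement genes in each library, libraries labelled YAP left and Control right, with a bar at each mean and axes that start at 0. C3 relative to the CD46 row, CD59 and the CLU row is higher in every library labelled YAP than in any Control library, and C3 relative to CFB is lower.

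A relative of C1R bears on how firmly its reads can be placed. The row LOC102188569, named complement C1r subcomponent-like with the symbol C1R in the deposited table, is the neighbour of C1R in the RefSeq order, and C1S follows on the other side of C1R. It had 7.02, 5.81 and 6.71 FPKM in the libraries labelled YAP, against 2.15, 1.95 and 2.03 FPKM in Control libraries, a 3.19-fold ratio close to the 3.36-fold of C1R. The sources used here do not state how reads shared by both genes were counted, so the split between them is uncertain.

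The other genes of the pathway were taken from a list of 55 symbols (classical and lectin, alternative, terminal, regulators and receptors), drawn up from general knowledge with the results above known. Of these symbols, 30 matched 36 rows, by identifier or by the deposited symbol, and 9 rows passed the filter. By limma with Benjamini-Hochberg adjustment over all tested genes, 2 of the 9 rose, 5 fell and 2 did not pass, beside 12.9% higher and 23.0% lower among all tested genes. Their median log2 difference was -0.41, against -0.10 for all tested genes. The deposited pathway annotation for complement and coagulation cascades, which also holds clotting genes, gave another balance. Without the members, the CD46 row and the C1r-like row it had 49 rows, of which 19 were tested, 8 rose and 6 fell, with a median log2 difference of -0.09.

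The 2 that rose were serine proteases, listed here with the classical and lectin genes. MASP1, a protease of the lectin arm, had 33.5, 29.7 and 32.6 FPKM in the libraries labelled YAP, against 20.1, 19.2 and 21.4 FPKM in Control libraries (log2 difference 0.63, SE 0.08, limma adjusted p = 0.00015). The row LOC102186466, with the symbol C1RL for a C1r-like protein, had 7.81, 6.32 and 7.15 FPKM in the libraries labelled YAP, against 3.67, 3.12 and 4.04 FPKM in Control libraries (log2 difference 0.81, SE 0.11, limma adjusted p = 0.00017). It is the gene next to LOC102188569, so 4 neighbouring protein-coding genes (C1RL, the C1r-like gene, C1R and C1S) were all higher in the libraries labelled YAP. Of these, C1R and C1S were selected on this comparison, and the C1r-like row may share reads with C1R, so nothing is read from the run of neighbours. In MASP1 and the C1RL row the groups did not overlap.

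Among those that fell, the largest difference was in clusterin, a secreted chaperone that also inhibits the terminal complex. The row LOC102182127, with the symbol CLU, had 276, 296 and 252 FPKM in the libraries labelled YAP, against 559, 579 and 517 FPKM in Control libraries (log2 difference -1.0, SE 0.09, limma adjusted p = 6.1e-06). CD59, the membrane inhibitor of the terminal pore, had 108, 97.8 and 109 FPKM in the libraries labelled YAP, against 153, 123 and 148 FPKM in Control libraries (log2 difference -0.42, SE 0.09, limma adjusted p = 0.0053). Every library labelled YAP lay below every Control library in both rows. The CD59-like row LOC102175833 averaged 3.96 ± 0.753 FPKM in the libraries labelled YAP and 5.87 ± 1.07 FPKM in Control libraries (SD, n = 3 each). Its limma adjusted p was 0.022, a call lost without YAP replicate 1 (0.11), Control replicate 1 (0.085) or Control replicate 3 (0.069) and with no filter on low values (0.084). Reads of CD59 and this row may likewise be split by the counting.

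COLEC12, a scavenger receptor of the collectin family, averaged 42.8 ± 1.12 FPKM in the libraries labelled YAP and 72.2 ± 3.8 FPKM in Control libraries (log2 difference -0.74, SE 0.07, limma adjusted p = 2.2e-05). C1QBP, a mitochondrial and surface protein first known for binding C1q, averaged 43.5 ± 0.567 FPKM in the libraries labelled YAP and 58.0 ± 1.46 FPKM in Control libraries (log2 difference -0.41, SE 0.07, limma adjusted p = 0.0011). In both genes the groups did not overlap. The C8 gamma row LOC102183974 had 5.5, 5.45 and 2.78 FPKM in the libraries labelled YAP, against 5.73, 5.92 and 3.61 FPKM in Control libraries, with overlapping groups (95% confidence interval of the log2 difference -0.60 to 0.31, limma adjusted p = 0.61). ITGAX, an integrin subunit of a C3 fragment receptor, averaged 1.77 ± 0.398 FPKM in the libraries labelled YAP and 1.92 ± 0.133 FPKM in Control libraries (95% confidence interval -0.33 to 0.16, limma adjusted p = 0.57).

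**Figure D4:**
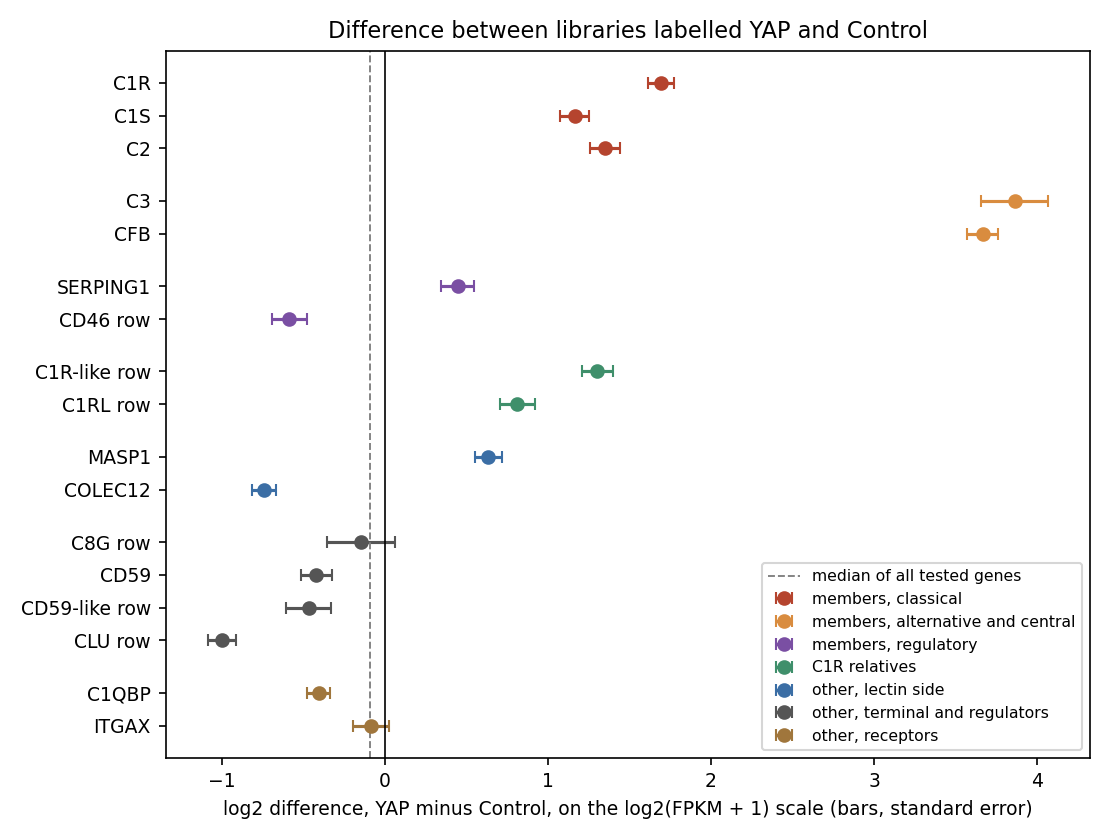
Difference in log2(FPKM + 1), libraries labelled YAP minus Control, for the members by arm and for related complement rows, with standard errors as bars and a dashed line at the median of all tested genes (-0.10). C3 and CFB lie near 3.86 and 3.67, the classical genes between 1.16 and 1.69, and the CLU row is the lowest at -1.0.

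Many partners of the measured genes had few or no reads. C1QA, a chain of the C1q subunit that recruits C1r and C1s, had at most 1 read in any library. CFD, the protease adipsin that cleaves factor B and is a classic adipocyte product, had at most 1 read as well. The terminal components C5, C6 and C7 had at most 4 reads in any library. The most read row for C4, LOC102189753, reached 93, 82 and 87 reads in the libraries labelled YAP, against 67, 65 and 56 reads in Control libraries, or 0.454 FPKM on average in the libraries labelled YAP and 0.336 FPKM in Control libraries. Other rows carry the C4 symbol as well, and how reads shared between them were counted is not stated, so the level of C4 is uncertain. CFP, which stabilises the alternative convertase, averaged 0.339 FPKM in the libraries labelled YAP and 0.402 FPKM in Control libraries, and was not tested.

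Some low receptor genes differed in reads. C5AR2, a receptor for the C5 fragment C5a, had 23, 34 and 26 reads in the libraries labelled YAP, against 1, 1 and 0 reads in Control libraries. ITGB2, the beta subunit of the leukocyte complement receptors, had 44, 54 and 54 reads in the libraries labelled YAP, against 12, 0 and 1 reads in Control libraries. Both lay under the filter, and with a filter at 0.1 FPKM their limma adjusted p was 0.0013 and 3.6e-04. C5AR2 reached 0.1 FPKM in the libraries labelled YAP alone, and ITGB2 in these and in Control replicate 1. Both thus entered that test through the libraries labelled YAP and were named after their values were seen, so nothing is read from these p-values. With no filter on low values the C4 row LOC102189753 passed too (limma adjusted p = 0.021), which made 5 of the other complement rows higher.

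Markers of other cells that make complement were set beside these values. Of 11 leukocyte markers 9 had a row, and PTPRC, AIF1, CD74, TYROBP and ITGAM had at most 3 reads in any library. The summed leukocyte list ranged from 30.2 to 32.1 FPKM in the libraries labelled YAP and from 22.2 to 25.3 FPKM in Control libraries. Of its 3 tested members 1 rose, CD14, a lipopolysaccharide coreceptor that averaged 18.6 FPKM in the libraries labelled YAP and 9.58 FPKM in Control libraries. The 1 that fell was CD68, a lysosomal protein of macrophages. LAPTM5, the remaining tested member, had 687 to 795 reads per library and did not pass. It averaged 10.2 FPKM in the libraries labelled YAP and 9.47 FPKM in Control libraries (limma adjusted p = 0.42). Of 8 hepatocyte markers 3 had a row, summing to 0.266 to 0.633 FPKM in the libraries labelled YAP and 1.49 to 1.9 FPKM in Control libraries, of which APOA2 and FGB had at most 3 reads. The 5 endothelial markers summed to at most 0.293 FPKM in the libraries labelled YAP and at most 0.533 FPKM in Control libraries. The part of these markers in the complement differences was not tested.

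Finally, the genes with the most similar profile were found by the root-mean-square distance between gene-centred log2(FPKM + 1) values over the 6 libraries. C3 was taken as the member with the largest rise on this scale, although CFB had the larger ratio and the larger log2 difference with a pseudocount of 0.1 (5.68, against 4.01 for C3) and with limma-voom (6.30, against 4.03). Nearest to C3 was LOC102168428, named serum amyloid A protein, at a distance of 0.257 log2 units. It had 295, 328 and 257 FPKM in the libraries labelled YAP, against 18.9, 9.61 and 16.8 FPKM in Control libraries, again lowest in Control replicate 2. LOC108636404, named bone marrow stromal antigen 2-like, followed at 0.308 and CFB itself at 0.31. Nearest to the CD46 row, the member row that was lower, were CSE1L (0.0269), LGR4 (0.035) and MYO6 (0.0357).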

How the data were processed

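The authors deposited FPKM in 2 tables, and fastp, HISAT2 and HTSeq are named, with no version, role or setting, per the submitters' processing notes. The build, annotation, strand setting and counting of shared reads were not given in the sources used here. Beside the libraries labelled YAP, their table held 6 further columns of per-sample values, headed TAZ and pcDNA, which match no sample title and entered no result. The pcDNA columns equal the Control columns in every row. FPKM are scaled library by library, with no joint normalization recorded, and were compared as deposited.

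Groups and replicate numbers came from the sample titles. Of 16285 identifiers, 16262 matched a RefSeq symbol of assembly ARS1.2, used for names and gene order alone. Whole reads were recovered from the steps between low FPKM: 15957 of 15958 genes above 0 and 99.997% of values above 0 were whole within 0.005 reads. The number of reads sets the precision of low values. Replicates differed by more than counting noise (chi-square per gene 7.92 to 31.9), so all 6 libraries were kept.

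Genes that reached 1 FPKM in 3 or more libraries were tested on log2(FPKM + 1), a pseudocount of 1, with limma 3.58.1 in R 4.3.3 (variance trend, two-sided, Benjamini-Hochberg over all tested genes, threshold 0.05). The members were chosen with results of this comparison known. Those that passed the filter were part of the fit over all genes, but no p-value is given for them and nothing is read from their calls. The lists were also drawn up with earlier results known. Named genes were all members, YAP1, the other complement rows past the threshold or with at least 1 FPKM, and the 3 nearest profiles of the member with the largest rise in log2(FPKM + 1) and of that with the largest fall. CFD, C1QA, CFP, C4, C5, C6, C7, C5AR2, ITGB2 and the markers were named after their values were seen. The steps were tested on simulated data. Alternatives were a pseudocount of 0.1, no filter, a 0.1 FPKM filter, scaling by median of ratios, limma-voom on recovered reads, the replicate number as a block, and leaving out each library. No sequences were used here.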

Additional observations from a re-analysis of the deposited data

How the results depend on the processing

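Across the alternatives C3, CFB, C1R, C1S, C2 and SERPING1 stayed higher in the libraries labelled YAP and the CD46 row lower. A pseudocount of 0.1 and limma-voom on recovered reads moved the median log2 difference of the classical arm to 1.74 and 1.75, that of the alternative and central arm to 4.85 and 5.16, and SERPING1 to 0.62 and 0.64. A smaller pseudocount shows more of a low gene's change by construction. Leaving out single libraries gave 1.32 to 1.40 for the classical arm, 3.59 to 3.86 for the alternative and central arm and 0.37 to 0.51 for SERPING1. The other complement rows past the threshold numbered 5 higher with no filter and 4 with a filter at 0.1 FPKM, where more rows enter the test, and 2 higher and 4 to 5 lower without single libraries. The count over all genes ranged from 2411 to 3606 without single libraries. Without single libraries YAP1 ranged from -0.028 (without Control replicate 1) to 0.054, and was -0.018 without YAP replicate 1 and -0.014 without YAP replicate 3. Scaling by median of ratios put YAP1 at 0.090 (limma adjusted p = 0.43). The C8 gamma row ranged from -0.33 to 0.11, and turned positive without YAP replicate 3. The cause was not tested.

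The labels name no pairing by replicate number. Deviations of same-numbered libraries from their group means correlated across genes at -0.02, 0.59 and 0.60 for numbers 1 to 3. YAP replicate 2 with Control replicate 3 gave -0.62, and YAP replicate 3 with Control replicate 2 gave -0.56. Deviations from a mean of 3 libraries sum to 0, so these correlations are linked and do not count as separate evidence. They show a contrast of replicate 2 with replicate 3 that both groups shared, and its source was not tested. With the replicate block 5573 genes passed, the counts of other complement rows stayed at 2 higher and 5 lower, and the members' differences were the same by construction. CFI and CD55, at 0 to 2 reads per library, allow no comparison at this depth.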
